A study of Arabidopsis thaliana with 12 samples.

Results

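The EARLI1-AZI1 cluster is a row of 9 related single-exon genes on chromosome 4 of Arabidopsis thaliana, and it makes up 9 of the 33602 genes measured. The genes were chosen by their RPKM values: the list of neighbouring loci was drawn up around the low level of AT4G12500 in the bpc mutant, to see whether that low level extends to its neighbours. The difference between mutant and wild type was therefore used in the choice, and it is given below as a description with no p-value. Counts of members past the threshold used for all genes restate that choice and test nothing. The response of the same genes to cytokinin did not enter the choice and was tested.

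Whole seedlings 10 days of age, of the mutant bpc1,2,3,4,6 (called bpc here) or of wild type (WT, accession Col-0), were shaken for 1 h in liquid medium, 12 per treatment. The medium held 5 µM benzyladenine (BA), a synthetic cytokinin, or, as vehicle, 0.01% of a NaOH solution of 5 N. RNA was then taken from the whole roots. Each of the 4 groups, WT vehicle, WT BA, bpc vehicle and bpc BA, held 3 libraries. The bpc label names 5 BASIC PENTACYSTEINE genes, but the sources used here give neither the alleles nor their insertion sites. The labels are silent on whether the 3 libraries within each group stem from separate growths, so the p-values cover the scatter among these samples alone, and that scatter may be technical.

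Hybrid proline-rich proteins join a stretch rich in proline to a compact domain of the lipid-transfer type, held together by cysteines. Not all genes of this row had a high share of proline codons, as given below. AZI1 (AZELAIC ACID INDUCED 1) is required for the priming of systemic immunity by azelaic acid, EARLI1 (EARLY ARABIDOPSIS ALUMINUM INDUCED 1) responds to aluminium and to cold, and AIR1 was found as an auxin-induced transcript of root cultures. BASIC PENTACYSTEINE proteins are plant transcription factors that bind GA-repeat motifs in DNA.

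In the RefSeq annotation of TAIR10.1 the first 7 genes lie on the minus strand and the last 2 on the plus strand. In order they are AZI1 (AT4G12470, chr4:7401087-7401951), EARLI1 (AT4G12480, chr4:7406065-7406994), AZI3 (AT4G12490, chr4:7409621-7410406) and AT4G12500 (chr4:7413990-7414955). They are followed by AT4G12510 (chr4:7417068-7417873), AT4G12520 (chr4:7420951-7421828), AT4G12530 (chr4:7427834-7428563), AIR1B (AT4G12545, chr4:7434199-7434858) and AIR1 (AT4G12550, chr4:7439115-7439805). The gaps between neighbouring members run from 2112 to 6005 bases. AT4G12540, which is not a member, lies between AT4G12530 and AIR1B.

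The 250 bases before the RefSeq start are shown for AIR1B (chr4:7433949-7434198, plus strand) and AIR1 (chr4:7438865-7439114, plus strand), a pair of near copies that were both low in bpc, because the mutated factors bind GA repeats. Both are read 5′ to 3′ along the gene. Capitals mark GAGAGA or AGAGAG on either strand, and thus also TCTCTC or CTCTCT.
AIR1B: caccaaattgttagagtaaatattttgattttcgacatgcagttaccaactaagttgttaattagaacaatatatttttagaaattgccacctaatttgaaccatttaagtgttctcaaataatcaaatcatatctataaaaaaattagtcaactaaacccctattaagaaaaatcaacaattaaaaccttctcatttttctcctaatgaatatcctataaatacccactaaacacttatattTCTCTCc
AIR1: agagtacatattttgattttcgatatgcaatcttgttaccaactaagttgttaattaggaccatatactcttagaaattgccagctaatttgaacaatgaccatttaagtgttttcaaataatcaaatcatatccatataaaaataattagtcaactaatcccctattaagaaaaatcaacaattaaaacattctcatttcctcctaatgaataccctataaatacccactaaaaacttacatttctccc

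The windows of 7 members were searched, so the counts do not describe the whole row and nothing is read from them for the cluster. GAGAGA on either strand was found before 2 of the 7 genes (AT4G12530 and AIR1B) and before 20.6% of 27443 protein-coding genes. AGAGAG, which overlaps it in a longer repeat and was added after the first search, was found before 2 of 7 (AT4G12510 and AT4G12530) and before 19.7% of all genes. Either run was found before 3 of 7 members, against 26.2% of all genes. AIR1B held a run and its near copy AIR1 held none. The run of AT4G12510 lies 18 bases before the gene, in the stretch that the window of its copy AT4G12520 does not reach. A match is a description of letters, not a binding site, and a window without one says only that these letters are not in it.

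The same windows held TATAAATA, the core of a TATA box, on the strand of the gene in 4 of 7 members and in 6.4% of all genes. The search for this motif was not planned, and AIR1B and AIR1 are near copies, so nothing is read from the count. In AT4G12530, AIR1B and AIR1 it began 33 to 34 bases before the annotated start, and in AZI1 43 bases before it. The windows of AIR1B and AIR1 shared 84.1% of aligned bases and those of AZI1 and EARLI1 63.2%. AT4G12510 and AT4G12520 shared 46.2% when aligned end to end, but the windows are copies cut at different annotated starts. Shifted by 90 bases, they overlapped over 160 bases and were identical at 157 of them (98.1%). The remaining pairs shared 48.6% to 55.1%. The authors' gene models may start elsewhere than those of RefSeq, since the lengths implied by their values differed from the RefSeq lengths for 6 of the 9 members.

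Most of the coding sequences had a near copy in the row. AT4G12510 and AT4G12520 were identical at 388 of 390 bases (99.5%), AIR1B and AIR1 shared 93.2% of aligned bases, AZI3 and AT4G12500 90.3%, and AZI1 and EARLI1 84.1%. EARLI1 was about as close to AT4G12500 (83.3%) and AZI3 (81.4%) as to AZI1. AT4G12530 had no near copy, with at most 57.3% to any other member. AZI1, EARLI1, AZI3 and AT4G12500 form the proline-rich end of the row, with 14.9% to 18.1% proline codons over coding lengths of 486 to 549 bases. The other 5 had 6.0% to 7.8% proline codons over 327 to 390 bases. Cysteine codons numbered 8 to 11 in all 9.

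**Figure D1:**
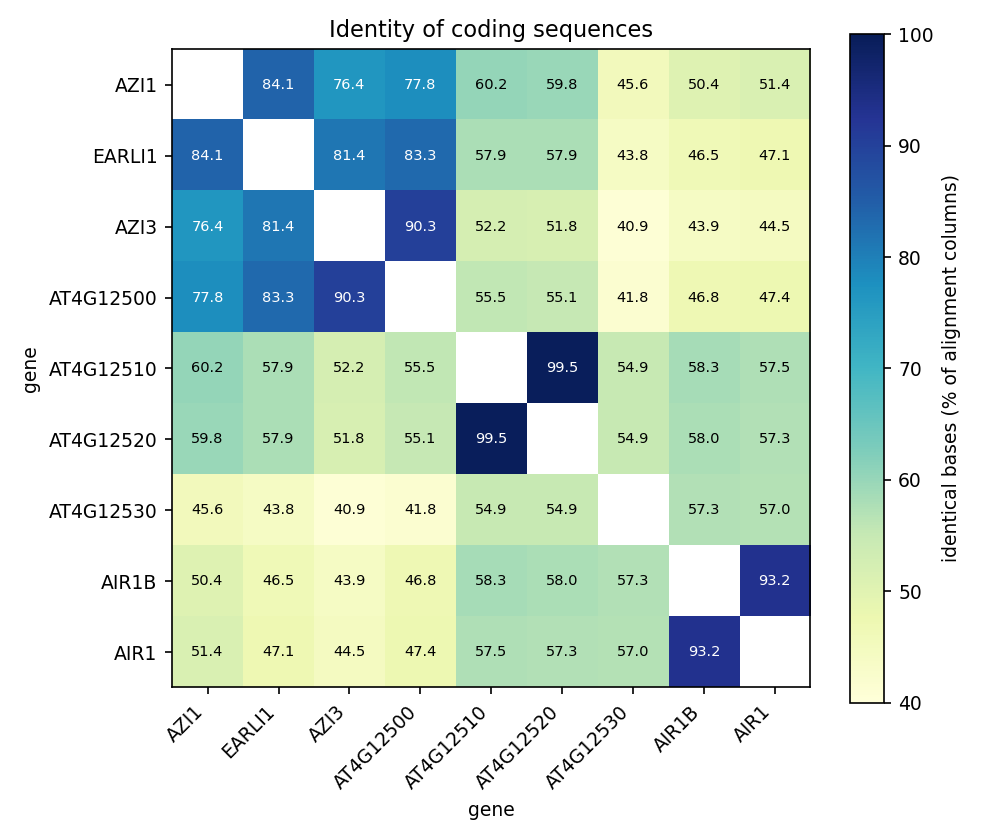
Identity of the coding sequences of the 9 genes in RefSeq TAIR10.1, as the percentage of alignment columns with the same base, with genes in chromosome order on both axes. The darkest cells off the diagonal are AT4G12510 with AT4G12520 (99.5%), AIR1B with AIR1 (93.2%) and AZI3 with AT4G12500 (90.3%).

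These copies limit how far short reads can be told apart. Of all 50-base windows of AT4G12510 and AT4G12520, 51.8% and 58.1% occurred elsewhere in the genome as well, and 392 windows were shared by the pair. At 100 bases the repeated shares were 48.4% and 55.5%, and no other member had a repeated window of that length. At 50 bases the repeated share was 6.8% for AZI3, 5.5% for AT4G12500, 11.9% for AIR1B and 11.4% for AIR1, all within those pairs, and 0 for the others. The sources used here do not tell how reads with several matches were counted, so the split between AT4G12510 and AT4G12520 is uncertain. RefSeq also lists an antisense gene over 32 bases of EARLI1, 282 of AZI3, 444 of AIR1B and 642 of AIR1 (AT4G12485, AT4G12495, AT4G12543 and AT4G12555), none of which is in the deposited table. The libraries came from a stranded kit, but whether counting used strand is not given.

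Levels are in RPKM, read counts scaled by gene length and by the read total of the library, as deposited by the authors. The steps of these values place the libraries between 9427912 and 13951019 reads. In WT BA 1 the divisor was the same as in WT vehicle 2, and its length-weighted sum reached 86.5% of the median of the libraries. The values of WT BA 1 may thus be too low, and they were used as deposited. BPC1, BPC2 and BPC6 were lower in bpc by log2 -2.42, -3.09 and -4.18 with vehicle, BPC4 by -0.5, whereas BPC3 was higher by 0.95. All 8 root cell type markers were above 1 RPKM in every group. Green shoot markers summed to 75.9 to 124 RPKM over the 12 libraries, with group ranges that overlapped. Between genotypes with vehicle, limma called none of the 8 root and 9 green shoot markers, of which 0 and 3 had an unadjusted p under 0.05, whereas the authors' deposited table has 2 and 3 lower in bpc at an FDR under 0.05. Their part in the results below was not tested.

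In WT roots with vehicle the cluster covered more than 3 orders of magnitude. EARLI1 led with 341.6 ± 32 RPKM (SD, n = 3), and AZI1 followed with 255.4 ± 66.7 RPKM. AIR1 had 191.7 ± 11.7 and AIR1B 148.2 ± 15.8 RPKM. AT4G12520 (61.4 ± 20.7), AT4G12510 (52.4 ± 13.8) and AZI3 (41.9 ± 16 RPKM) formed a middle group. AT4G12500 was far below them at 10.5 ± 1.61 RPKM, and AT4G12530 was barely detected at 0.24 ± 0.271 RPKM. The libraries of EARLI1 and AZI1 overlapped, as did each neighbouring pair within the middle group, while all other neighbours in this order were separate.

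In bpc with vehicle only AZI1 and EARLI1 changed places in the order of means. AZI1 (245.3 ± 23.8 RPKM) stood level with EARLI1 (228 ± 37), with overlapping libraries. AIR1 (84.8 ± 11.4), AIR1B (79.2 ± 8.8), AT4G12520 (57.6 ± 21.1) and AT4G12510 (52.8 ± 7.77) formed a chain in which each overlapped the next. AZI3 had 11.5 ± 2.82 RPKM and AT4G12500 0.736 ± 0.184 RPKM, close to AT4G12530 at 0.237 ± 0.264.

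**Figure D2:**
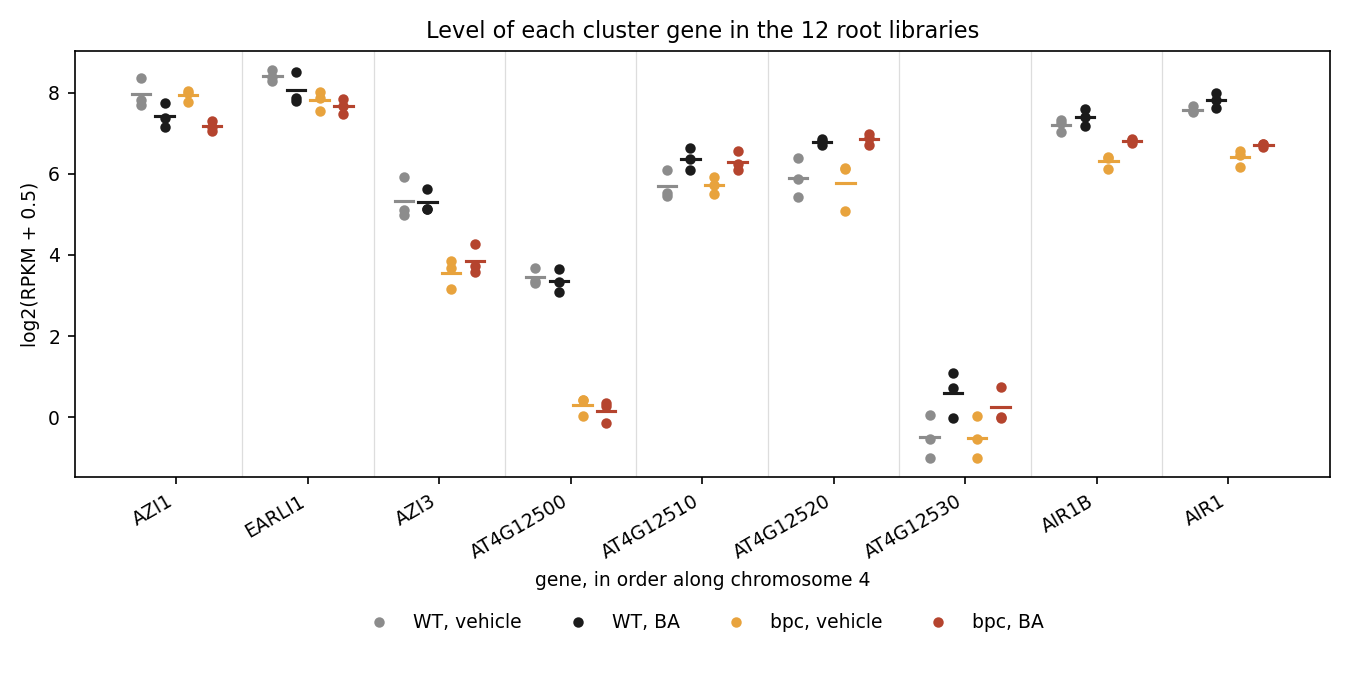
Level of each cluster gene in each of the 12 libraries as log2(RPKM + 0.5), with genes in chromosome order; points are libraries and bars are means of the 3 libraries of a group. AT4G12500 separates the genotypes most, AZI3, AIR1B and AIR1 separate them by less, and AZI1, AT4G12510, AT4G12520 and AT4G12530 overlap between genotypes with vehicle.

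AT4G12500 was nearly lost in bpc. It had 9.67, 12.4 and 9.46 RPKM in the WT vehicle libraries and 0.843, 0.841 and 0.523 RPKM in those of bpc. With BA it had 8.05, 12.2 and 9.64 RPKM in WT and 0.771, 0.705 and 0.409 RPKM in bpc. All 6 bpc libraries lay far below all 6 WT libraries. The bpc means were 7.01% of WT with vehicle and 6.31% with BA. On the log2(RPKM + 0.5) scale the differences were -3.15 ± 0.19 (SE) and -3.21 ± 0.19. The bpc values correspond to 7, 7 and 4 reads with vehicle and 7, 6 and 3 with BA, against 73 to 123 in WT. The log2 size therefore depends on the pseudocount: it was -3.68 and -3.81 with 0.1 RPKM and -2.72 and -2.74 with 1 RPKM.

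AZI3, the adjacent gene and closest copy of AT4G12500, was low in bpc to a lesser degree. Its WT vehicle libraries had 31.1, 34.3 and 60.2 RPKM and those of bpc 12.3, 13.9 and 8.42 RPKM. With BA, WT had 34.8, 48.7 and 34.4 RPKM and bpc 11.4, 12.7 and 18.9 RPKM. The genotypes did not overlap under either treatment. The bpc means were 27.6% and 36.5% of WT, and the log2 differences were -1.78 ± 0.26 with vehicle and -1.44 ± 0.26 with BA. WT vehicle 3 and bpc vehicle 3 were the extremes, and without both the vehicle difference was -1.29.

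AIR1 and AIR1B, at the far end of the row and on the other strand, formed the second low pair. AIR1 had 205, 186 and 184 RPKM in WT vehicle and 88.5, 93.9 and 72 RPKM in bpc vehicle. With BA it had 225, 197 and 254 RPKM in WT and 106, 100 and 107 RPKM in bpc. The 2 genotypes stood clear of each other in both treatments, with bpc at 44.3% and 46.3% of WT. The log2 differences were -1.18 ± 0.12 and -1.1 ± 0.12.

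AIR1B had 161, 154 and 130 RPKM in WT vehicle and 83.2, 85.3 and 69.1 RPKM in bpc vehicle. With BA it had 169, 145 and 192 RPKM in WT and 108, 116 and 114 RPKM in bpc. No bpc library reached the lowest WT library of the same treatment. The bpc means were 53.4% of WT with vehicle and 66.6% with BA, at log2 differences of -0.9 ± 0.13 and -0.57 ± 0.13.

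EARLI1 differed less. It had 334, 314 and 377 RPKM in WT vehicle and 261, 235 and 188 RPKM in bpc vehicle, which did not overlap (log2 -0.59 ± 0.19). With BA it had 223, 367 and 232 RPKM in WT and 177, 231 and 203 RPKM in bpc, and the groups overlapped (-0.4 ± 0.19). The overlap came from WT BA 1 (223 RPKM) alone, the library with a length-weighted sum of 86.5% of the median. Without both vehicle libraries numbered 3, the vehicle difference of EARLI1 was -0.39.

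The other 4 genes overlapped between genotypes under both treatments. AZI1 differed by -0.03 ± 0.18 with vehicle and -0.25 ± 0.18 with BA. AT4G12510 differed by 0.03 ± 0.19 and -0.06 ± 0.19, and AT4G12520 by -0.11 ± 0.27 and 0.07 ± 0.27. AT4G12530, with at most 10 reads in any library, differed by 0 ± 0.37 and -0.35 ± 0.37. Neither AT4G12510 nor AT4G12520 showed a difference larger than its error. Because the split of reads between them is uncertain, opposite changes in these copies could go unseen.

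The low level was thus not continuous along the row. From left to right, AZI1 was near its WT level, and EARLI1 (which did not pass the threshold), AZI3 and AT4G12500 had increasingly negative differences. AT4G12510 and AT4G12520 were near WT, and AIR1B and AIR1 were low again. AT4G12530, which lies between these pairs, had too few reads to be placed. Under the threshold used for all genes (adjusted p under 0.05 in limma), 4 of 9 members, AZI3, AT4G12500, AIR1B and AIR1, were lower with vehicle, where 1.08% of 20776 tested genes were lower. The same 4 were lower with BA, where 1.03% of genes were, and 0.693% of genes were lower in both. Groups did not overlap, with bpc lower, for 5 of 9 members with vehicle (6.77% of genes) and 4 of 9 with BA (6.48% of genes). The choice of members had used this contrast, so nothing is read from these counts. The median log2 difference was -0.59 over the members and 0.04 over all genes with vehicle, and -0.4 and 0.08 with BA. In whole roots, fewer cells that express these genes cannot be told apart from less RNA per cell.

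**Figure D3:**
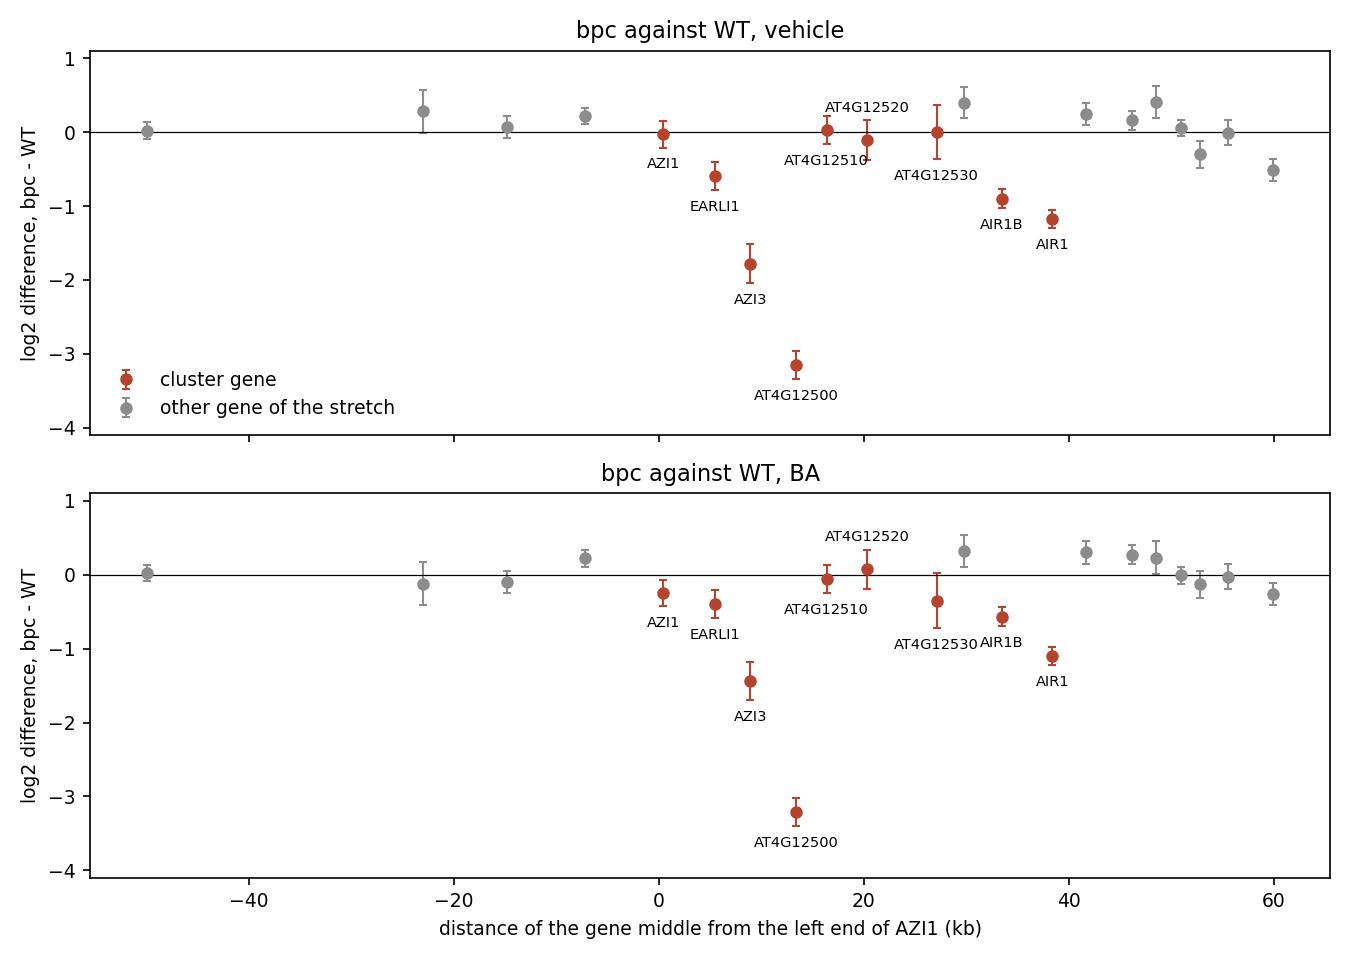
Difference between bpc and WT (log2 ± SE) for the cluster genes and the other tested genes of the stretch, against the distance of each gene's middle from the left end of AZI1 in kb, with vehicle (top) and BA (bottom). EARLI1, AZI3 and AT4G12500 descend to -3.15 with vehicle, AT4G12510 and AT4G12520 return to about 0, and AIR1B and AIR1 fall to -0.9 and -1.18. The point of AT4G12530, also at 0 with vehicle, rests on few reads.

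The genes around and within the row were compared in the same way. Of 17 other loci, AT4G12540 inside the row and 8 on each side, 12 had enough reads to be tested. None of the 12 passed in limma in bpc against WT under either treatment, and 1 had an unadjusted p under 0.05 in each. In the authors' deposited edgeR table for vehicle, 1 of the 12, AT4G12620, had an FDR under 0.05. That gene had 5.91, 5.26 and 6.52 RPKM in WT vehicle and 4.49, 3.66 and 3.86 RPKM in bpc vehicle. Its groups did not overlap, and its difference of -0.51 ± 0.15 (limma adjusted p = 0.12) was near that of EARLI1. With BA it was -0.26 ± 0.15 and the groups overlapped. That overlap came only from WT BA 1 (4.94 RPKM), the library with a low length-weighted sum, against bpc BA 1 (5.65 RPKM). The log2 differences ran from -0.51 (AT4G12620) to 0.41 with vehicle and from -0.26 to 0.32 with BA. AT4G12540, between the middle genes and AIR1B, went from 2.75 ± 0.804 RPKM in vehicle-treated WT roots to 3.73 ± 0.539 RPKM in those of bpc (0.4 ± 0.21). The nearest tested gene to the left, AT4G12460, differed by 0.22 ± 0.11. To the right, CPR1 (AT4G12560), an F-box gene that restrains defence responses, differed by 0.24 ± 0.15.

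The response to BA was tested in each genotype. With BA, AT4G12510 and AT4G12520 were higher and AZI1 was lower in both genotypes by point estimate, whereas the estimates for AT4G12500 and AZI3 were within about 1 SE of 0. In bpc 3 of 9 members passed the limma test, where 8.59% of all tested genes did, and 5 of 9 had an unadjusted p under 0.05, as did 18.3% of genes. In WT none of the 9 passed, where 8.68% of genes did, although 4 of 9 had an unadjusted p under 0.05, as did 18.5% of genes. Among those 4, AT4G12530 met the filter (0.5 RPKM in 3 libraries) only with its BA libraries counted, so its p is not read as support. The authors' deposited edgeR tables list 8 of the 9 members. There, 4 of the 8 had an FDR under 0.05 in WT, where 18.8% of all 19706 listed genes did, and 5 of the 8 in bpc, where 23.8% did.

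AT4G12520 showed the largest response among the well-detected members. Its WT libraries had 83.4, 58.3 and 42.4 RPKM with vehicle and 116, 112 and 104 RPKM with BA. Those of bpc had 70.8, 68.9 and 33.2 RPKM with vehicle and 104, 117 and 127 RPKM with BA. All BA libraries were above all vehicle libraries in both genotypes. The log2 response was 0.9 ± 0.27 in WT (limma adjusted p = 0.06) and 1.08 ± 0.27 in bpc (adjusted p = 0.024). The bpc call was lost without bpc vehicle 3 (0.73) and without any 1 of the bpc BA libraries (1.01 to 1.15), with adjusted p from 0.0029 to 0.096 over all alternatives. The WT value passed in 6 of 23 alternatives. The authors' deposited tables give 0.79 (FDR 3.4e-05) and 1.01 (FDR 2.6e-08).

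Its near copy AT4G12510 had 68.3, 43.1 and 45.9 RPKM with vehicle and 81.9, 98.4 and 67.4 RPKM with BA in WT. In bpc it had 60.7, 52.7 and 45.2 RPKM with vehicle and 75.4, 67.9 and 94.5 RPKM with BA. The WT groups overlapped by 1 library on each side and the bpc groups did not overlap. The responses of 0.67 ± 0.19 in WT (limma adjusted p = 0.053) and 0.58 ± 0.19 in bpc (adjusted p = 0.1) did not pass, though the WT value passed in 7 of 23 alternatives. The authors' deposited tables give 0.69 (FDR 0.016) and 0.59 (FDR 0.039). Because the pair shares most of its sequence, the values cannot be assigned to 1 copy alone.

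AZI1 went the other way. It had 226, 209 and 332 RPKM with vehicle and 167, 213 and 142 RPKM with BA in WT. In bpc it had 256, 218 and 262 RPKM with vehicle and 142, 158 and 133 RPKM with BA. The bpc groups were separate, and in WT only the second BA library reached the vehicle range. The response was -0.54 ± 0.18 in WT (limma adjusted p = 0.097) and -0.76 ± 0.18 in bpc (adjusted p = 0.019). The bpc call was lost without bpc vehicle 1 or 3 or bpc BA 1 or 3 (-0.75 to -0.71), with adjusted p from 0.0037 to 0.086 over all alternatives. The WT value passed in 1 of 23 alternatives, without WT BA 2 (-0.7). The authors' deposited tables give -0.39 (FDR 0.025) and -0.76 (FDR 2.2e-07).

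AIR1B rose with BA in bpc by 0.51 ± 0.13 (limma adjusted p = 0.025), with separate groups, and its response in WT was 0.18 ± 0.13 (adjusted p = 0.54). The bpc call was lost without bpc vehicle 1 or 3 or any bpc BA library (0.41 to 0.55), with adjusted p from 0.015 to 0.099 over all alternatives. AIR1 had a response of 0.3 ± 0.12 in bpc (adjusted p = 0.19), also with separate groups, and 0.23 ± 0.12 in WT (adjusted p = 0.38). The authors' deposited tables give 0.5 (FDR 4.7e-07) for AIR1B and 0.3 (FDR 0.01) for AIR1 in bpc. For WT they give 0.18 (FDR 0.14) and 0.24 (FDR 0.042).

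The genes with the lowest levels in bpc did not pass the test for a BA response. For AT4G12500 it was -0.08 ± 0.19 in WT and -0.13 ± 0.19 in bpc, and for AZI3 -0.05 ± 0.26 and 0.3 ± 0.26. EARLI1 had -0.35 ± 0.19 and -0.16 ± 0.19. AT4G12530 had 4, 0 and 1 reads with vehicle and 3, 8 and 10 with BA in WT, a response of 1.1 ± 0.37 (limma adjusted p = 0.1). In bpc it had 0, 3 and 1 reads with vehicle and 3, 3 and 6 with BA (0.75 ± 0.37, adjusted p = 0.33). So few reads leave its level and its response poorly fixed.

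**Figure D4:**
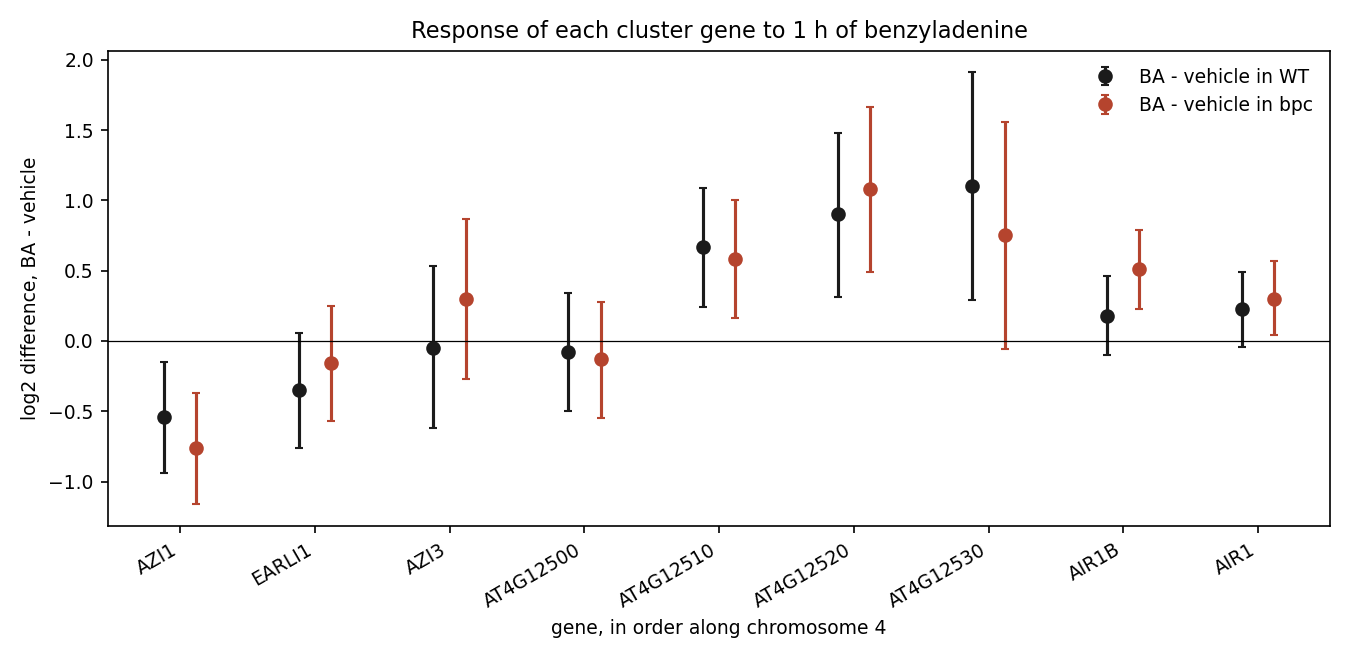
Response of each cluster gene to BA (log2 difference from vehicle, with 95% confidence interval, unadjusted) in WT and bpc, with genes in chromosome order. The intervals lie below 0 for AZI1 and above 0 for AT4G12510 and AT4G12520 in both genotypes, and the WT and bpc intervals overlap for every gene.

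Whether the response differed between the genotypes was tested directly. None of the 9 members passed the limma interaction test, where 0.00481% of genes did, and none had an unadjusted p under 0.05, where 1.63% did. The largest absolute difference among well-detected members was in AZI3 (0.34, 95% interval -0.46 to 1.15), followed by AIR1B (0.33, -0.07 to 0.72). The intervals were -0.78 to 0.34 for AZI1, -0.65 to 1.01 for AT4G12520 and -0.65 to 0.54 for AT4G12500. They leave room for differences of the size of the responses themselves.

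Among markers of root cell types, SCR and MYB36 were lower with BA in both genotypes (SCR by -0.72 ± 0.14 in WT and -0.7 ± 0.14 in bpc), and the other 6 of 8 did not pass in limma. At an unadjusted p under 0.05 there were 3 of 8 in WT and 4 of 8 in bpc, and the authors' deposited tables have 4 of 8 in WT and 5 of 8 in bpc with an FDR under 0.05. Their part in the responses of the cluster was not tested. Among the neighbours, AT4G12450 fell with BA by 0.76 ± 0.15 on the log2 scale in WT (limma adjusted p = 0.0049) and by 0.93 ± 0.15 in bpc (adjusted p = 0.0012). AT4G12440 (APT4) was higher in WT (1.1 ± 0.29, adjusted p = 0.029), a call lost without WT vehicle 2 or WT BA 2 or 3 (0.85 to 1.15). In bpc its response was 0.69 ± 0.29 (adjusted p = 0.2), and the interaction was -0.4 ± 0.4 (adjusted p = 1). The 10 other tested loci of the stretch did not pass in WT in limma, nor did the 11 other than AT4G12450 in bpc. The authors' deposited tables have 2 of the 12 with an FDR under 0.05 in WT, AT4G12440 and AT4G12450, and 3 in bpc, these and AT4G12460.

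Lists of genes linked to the cluster by structure or function were read beside it. Between genotypes, 1.99% of all tested genes were called by limma with vehicle and 2.32% with BA, and 13.4% and 15.2% had an unadjusted p under 0.05. The authors' deposited table for vehicle has 13.1% of its genes at an FDR under 0.05. For BA against vehicle the limma shares were 8.68% in WT and 8.59% in bpc, the unadjusted ones 18.5% and 18.3%, and the shares at an FDR under 0.05 in the authors' deposited tables were 18.8% and 23.8%. The counts below stand against these shares, and whether a list exceeds them was not tested.

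Of 14 hybrid proline-rich and related genes elsewhere, 1 was called in limma between the genotypes under each treatment, and it was higher in bpc. With unadjusted p under 0.05 there were 4 with vehicle and 3 with BA. In the authors' deposited table for vehicle 4 of 13 had an FDR under 0.05, 1 higher and 3 lower in bpc. The gene called by limma was DRN1 (AT2G45180). Its vehicle level was 21.3 ± 5.2 RPKM in WT and 44 ± 8.41 RPKM in bpc (1.04 ± 0.17, limma adjusted p = 0.0084). Its BA difference of 0.74 ± 0.17 (adjusted p = 0.046) was lost in 13 alternatives. With BA, AT4G00165 rose in bpc (0.95 ± 0.25, adjusted p = 0.032), a call lost without bpc vehicle 1 or 3 or any bpc BA library (0.77 to 1.05), and 2 of 14 had an unadjusted p under 0.05. None passed in WT in limma, where 1 had an unadjusted p under 0.05. The authors' deposited tables have 4 of 13 with an FDR under 0.05 for BA in bpc, 1 higher and 3 lower, and 0 of 13 in WT.

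Of 20 genes of azelaic acid signalling and systemic acquired resistance, 15 were tested, and PR1, PR2 and PR5 were among those too low to test. With BA, 2 rose in each genotype in limma, and 6 of 15 in WT and 5 of 15 in bpc had an unadjusted p under 0.05. The authors' deposited tables have 6 of 14 with an FDR under 0.05 in each genotype, 4 higher and 2 lower. The 2 called by limma were PDLP1 (AT5G43980), which encodes a plasmodesmal protein, at 1.17 ± 0.18 in WT (limma adjusted p = 0.001) and 1.02 ± 0.18 in bpc (adjusted p = 0.0028), and ICS1 (AT1G74710), a salicylic acid synthesis gene, at 0.66 ± 0.15 and 0.59 ± 0.15. Between genotypes, limma called 1 with vehicle, ICS1, which was higher in bpc (0.67 ± 0.15, adjusted p = 0.04), and this was lost in 13 alternatives. It called none with BA, and 3 with vehicle and 4 with BA had an unadjusted p under 0.05. In the authors' deposited table for vehicle 3 of 14 had an FDR under 0.05, all higher in bpc: ICS1, FMO1 (AT1G19250) and DIR1 (AT5G48485).

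Of 8 auxin-induced root genes, none passed in limma between the genotypes. At an unadjusted p under 0.05 there were 2 with vehicle and 1 with BA, and 1 had an FDR under 0.05 in the authors' deposited table for vehicle. With BA, the same genes were called by limma in WT and in bpc, 2 higher and 2 lower. The authors' deposited tables have 6 of 8 in WT and 5 of 8 in bpc with an FDR under 0.05. IAA5 rose by 1.85 ± 0.19 in WT and 1.31 ± 0.19 in bpc, and AIR3, a subtilisin-like protease gene, by 0.53 ± 0.11 and 0.8 ± 0.11. The lateral root regulators LBD16 and LBD29 fell in WT by 1.4 ± 0.18 and 1.38 ± 0.15, and in bpc by 1.33 ± 0.18 and 1.36 ± 0.15. All 8 values had a limma adjusted p of at most 0.0065.

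Of 8 cold-induced protective genes, 7 were tested, and limma called 3 higher in bpc with vehicle and 4 with BA. At an unadjusted p under 0.05 there were 5 under each treatment, and in the authors' deposited table for vehicle all 7 were higher in bpc with an FDR under 0.05. KIN1 (AT5G15960) had vehicle levels of 68.8 ± 17.1 RPKM in WT and 279.6 ± 42.6 RPKM in bpc. This was a difference of 2.03 ± 0.2 (limma adjusted p = 0.00018), and the BA difference was 2.07 ± 0.2 (adjusted p = 0.00015). RD29A (AT5G52310) was higher with BA by 1.2 ± 0.2 (adjusted p = 0.0085). COR15A (1.55 and 1.21, on bpc levels near 1 RPKM) and KIN2 (1.03 and 1.15) made up the rest. In WT, COR15A had at most 0.179 RPKM with vehicle and 0.288 RPKM with BA. It passed the filter only through its bpc libraries, so its calls are not read as support. KIN1 and KIN2 are tandem near copies, so the split of reads between them is uncertain. The KIN2 call with vehicle was lost in 13 alternatives and with BA in 6, and the COR15A call in 2 and 5. For the response to BA, 0 of 7 were called by limma in either genotype, with 1 at an unadjusted p under 0.05 in each, and the authors' deposited tables have 1 (WT) and 2 (bpc) with an FDR under 0.05.

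The genes most like AT4G12500 over the 12 libraries, by Pearson r of log2(RPKM + 0.5), had lower means in bpc. A high r to a gene that differs mainly between the genotypes requires this, so nothing is read from it. BPC2, one of the mutated genes, had r = 0.993, with vehicle means of 17.1 RPKM in WT and 1.58 RPKM in bpc. The pseudogenes AT2G15510 and AT2G15520 had r of 0.993 and 0.992, with vehicle means of 2.09 and 2.51 RPKM in WT and 0.0231 and 0.0645 RPKM in bpc. AT1G05950 and the aquaporin gene PIP3 (AT4G35100) both had r = 0.985, and PIP3 had 337 RPKM in WT vehicle against 37.1 RPKM in bpc vehicle, well above the levels of the others in bpc. Such r values rest on the gap between 2 sets of libraries and say little about variation within them. The pseudogenes and AT1G05950 had bpc means of at most 0.219 RPKM and met the filter only with their WT libraries counted. Their r is not read as support.

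Within the cluster, AIR1B and AIR1 varied together most closely (r = 0.96 over 12 libraries, and 0.88 for deviations from the group means). AT4G12510 and AT4G12520 followed in the deviations among the copy pairs (0.88 and 0.66). For AZI3 and AT4G12500 the r of 0.91 over all libraries fell to 0.02 for the deviations. The bpc libraries of AT4G12500 hold 3 to 7 reads each, so this value cannot show whether these genes vary together within groups. Deviations of AZI1 and AIR1B were opposed (-0.81). These points share libraries and scaling, and the AIR1 and AT4G12510 pairs share sequence.

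For the other members the closest genes were AT4G21215 for AZI1 (r = 0.968), the chitinase-family gene CHI (AT2G43570) for EARLI1 (0.935) and PAR2 (AT3G58850) for AZI3 (0.948). They were the calmodulin-like gene CML23 (AT1G66400) for AT4G12510 (0.929), AAPT2 (AT3G25585) for AT4G12520 (0.975), AT4G11211 for AIR1B (0.984) and AT4G38760 for AIR1 (0.976). PAR2 shared the lower level of AZI3 in bpc, with 6.96 and 8.78 RPKM in WT vehicle and BA and 1.67 and 2.32 RPKM in bpc vehicle and BA. In WT the mean of PAR2 was higher with BA, whereas that of AZI3 was not (41.9 and 39.3 RPKM). CML23 followed AT4G12510, with 8.7 and 19.1 RPKM in WT and 7.71 and 16.7 RPKM in bpc.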

How the data were processed

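RNA from whole roots was sequenced in 12 libraries, grouped by the sample titles. The authors deposited RPKM values for 33602 genes and, per the file headers, edgeR tables of 19706 genes. Per the file headers, these hold p-values and FDR, scores of a likelihood-ratio test, log2 fold changes and average log2 CPM. The submitters' processing notes name edgeR 3.0, featureCounts, SAMtools 0.1.18, Bowtie 1.1.0, TopHat2 2.0.11 and FastQC, and the build TAIR10. Read totals were inferred from the steps of the RPKM values, with reads accepted as whole within 0.02. A read at 1 kb is worth 0.0717 to 0.106 RPKM.

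The 20776 genes that reached 0.5 RPKM in 3 or more of the 12 libraries, all 9 members among them, were fitted with limma 3.58.1 in R 4.3.3 on log2(RPKM + 0.5). The fit had a coefficient per group, an intensity trend and 8 residual degrees of freedom. Adjustment was by Benjamini-Hochberg over all tested genes at a threshold of 0.05, and on this scale the change of low genes is understated. The method was tested on simulated data. The members, gene lists and tests were chosen with earlier results of these data known.

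Genes named are the members, the BPC family, the 8 nearest loci on each side and any between, the 5 genes with the highest Pearson r to AT4G12500, the 2 with the highest r for each other member with a mean of at least 5 RPKM, and up to 4 called genes per list and contrast. RefSeq TAIR10.1 supplied coordinates and sequences. Protein sequences were not used here, and the upstream windows of 2 members are not reported here. Deviations from the group means of vehicle libraries with the same number correlated at 0.31, 0.37 and 0.63, so the numbers may pair WT and bpc there, and between other groups they did not. Alternatives changed the pseudocount, the filter, the scaling, the trend, the replicate block and the libraries kept. Leaving out both vehicle libraries numbered 3, fitting only the groups compared and quantile normalization were added after seeing the data.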

Additional observations from a re-analysis of the deposited data

How the results depend on the processing

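No cluster gene that was called changed direction under any of the alternatives. The choice of members used the difference between genotypes, so the spread of the next 2 counts shows only how they move with the processing and is no support for it. Among members, the vehicle count of 4 lower in bpc was 4 under every other setting tried and 2 with the groups compared alone. The BA count of 4 was 2 to 4 with 1 library left out, with 2 without bpc BA 1 or bpc BA 2. The BA response in WT, with 0 members called, gave 2 with median-of-ratios scaling (AT4G12510 0.72, AT4G12520 0.96) and 1 each with WT BA 1 rescaled, with quantile normalization, with the groups compared alone and without both vehicle libraries numbered 3. It gave 0 to 2 with 1 library left out. The 3 members called in bpc became 0 to 3, with 0 without bpc vehicle 3, bpc BA 1 or bpc BA 3.

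Over all genes, calls for bpc against WT with vehicle numbered 414 (173 to 421 with 1 library left out, 85 with the groups compared alone). With BA they numbered 481 (172 to 634 with 1 library left out, 1291 without both vehicle libraries numbered 3, 1032 with the groups compared alone). The vehicle split of 189 higher and 225 lower became 191 and 350 with quantile normalization. The BA split of 268 higher and 213 lower became 215 and 407 with median-of-ratios scaling, 267 and 369 with WT BA 1 rescaled, and 224 and 384 with quantile normalization. BA responses in bpc numbered 1785 (1175 to 2058 with 1 library left out). The 1 gene called for interaction became 2 with a pseudocount of 0.1, 0 with 1, 4 with no filter, 0 with a minimum of 2 RPKM, 2 with no trend, 2 without both vehicle libraries numbered 3 and 0 to 1 with 1 library left out. The cause of these changes was not tested.

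With the replicate number of the titles as a block, 2 members were called for BA in WT (AT4G12510, adjusted p = 0.047, and AT4G12520, adjusted p = 0.027), and the other member counts were unchanged at 3, 0, 4 and 4. Deviations of libraries with the same number correlated at -0.28 to 0.63, and 9 of 12 libraries correlated best with their own number, with all 3 over 0.1 only between the vehicle groups. At 9427912 to 13951019 reads per library, AT4G12530 and, in bpc, AT4G12500 rest on at most 10 reads.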
